A study of Mus musculus with 6 samples.

Results

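Cadherins are calcium-dependent adhesion proteins at the surface of most cells. The genes described here were all protein-coding rows of the FPKM tables whose Ensembl identifier maps to a mouse symbol beginning with *Cdh* and a digit or with *Pcdh*, which gave 89 of the 17193 genes listed. They comprised 20 *Cdh* genes, 12 protocadherins outside the gene clusters and 57 clustered protocadherins, namely 14 of the alpha, 22 of the beta and 21 of the gamma cluster. *Cdh9*, *Cdh12* and *Cdh16* were not analysed here. RNA was sequenced from astrocytes separated from the brains of wild-type C57BL/6 mice aged 3 months, in 3 libraries of mice labelled Mock and 3 of mice labelled Quinpirole, the latter named for an agonist of the dopamine receptor DRD2. The adult cells were isolated with microbeads against ACSA-2, an antigen encoded by *Atp1b2*. The labels number the libraries without saying whether each came from 1 mouse or a pool. The p-values therefore set group differences against the spread between these libraries.

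Classical cadherins bind like molecules on a neighbouring cell and are tied to actin through catenins, while protocadherins mostly lack that link and signal through other partners. Each alpha or gamma protocadherin joins its own first exon to a few last exons shared by the whole cluster, and beta protocadherins are single-exon genes. In the brain, N-cadherin takes part in adherens junctions of astrocytes and neurons, and gamma protocadherins take part in contacts between neurons and astrocytes.

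FPKM scales the fragments of a gene to the length of its transcript and to the depth of the library, so it allows levels to be compared between genes. The estimated depth was 25500000 to 27700000 fragments per Mock library and 22400000 to 26700000 per Quinpirole library. Of the marker lists, all 9 astrocyte genes were present, summing to 1435 to 1598 FPKM in Mock and 1436 to 1463 in Quinpirole libraries, and *Slc1a2* and *Atp1b2* fell (adjusted p in limma = 0.0297 and 0.0382). The 6 microglial genes summed to 324 to 341 FPKM in Mock and 343 to 376 in Quinpirole, with none called. Neuronal genes summed to 71.1 to 76.4 against 83.1 to 89.6, with *Stmn2* higher (adjusted p = 0.0322) and 6 of 8 under 1 FPKM, *Snap25* and *Rbfox3* among them. Mural genes summed to 2547 to 2716 against 2732 to 2902, nearly all of it *Acta2*, with *Pdgfrb* lower (adjusted p = 0.0227) and *Rgs5* and *Kcnj8* under 1 FPKM. The 5 fibroblast genes summed to 154 to 165 against 132 to 146, with *Col1a1* lower (adjusted p = 0.0298) and *Lum* at no more than 0.164 FPKM. The other 5 lists had no gene called, and their sums were 156 to 176 against 163 to 173 for oligodendrocytes, 2.62 to 3.30 against 2.12 to 2.40 for their precursors, 10.8 to 11.3 against 9.57 to 10.9 for endothelium, 137 to 152 against 138 to 147 for ependyma and 27.5 to 28.5 against 28.7 to 30.1 for choroid plexus. The part of these cells in the results was not tested, and in bulk samples fewer cells of a type and less RNA per cell cannot be told apart.

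The family was dominated by a few genes. Of the 89 genes, 10 had a mean of at least 10 FPKM and 20 had a mean under 0.1 FPKM. *Cdh2* alone held 35.7% to 38.0% of the summed FPKM of the family in every library. The genes next in level were the gamma protocadherin *Pcdhgc3* and the non-clustered *Pcdh10*. The 41 genes with a mean of at least 1 FPKM over the 6 libraries were tested, 10 *Cdh* genes, 6 non-clustered protocadherins and 25 clustered ones, and 48 fell below that limit.

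Promoter sequences of 20 members, 18 of them with a single start, were used from RefSeq's table for GRCm38.p6 (250 bases before to 50 bases after the start). The 18 include no clustered protocadherin and not *Cdh2*, *Pcdh1* or *Pcdh12*, whose promoters were not analysed here. The CpG dinucleotide, a C followed by a G, which reads alike on both strands, is the site of DNA methylation in mammals. Among these 18, the promoters of the 10 tested members held 2 to 38 CpG (median 20.5). Those of the 8 untested members held 4 to 21 (median 10). The median over 32851 promoters in the table was 7, and 94.6% held at least 1. Of these 18, the members of highest and lowest level with the start near the annotated gene start are shown, at 39.2 and 0.0241 FPKM. They were chosen by level alone. *Pcdh10* (chr3:45378148-45378447, plus strand) has 24 CpG, a number reached by 20.0% of promoters, and *Cdh8* (chr8:99416422-99416721, minus strand) has 21, reached by 24.8%. Both had 62.3% G and C. Capitals mark CpG.
Pcdh10: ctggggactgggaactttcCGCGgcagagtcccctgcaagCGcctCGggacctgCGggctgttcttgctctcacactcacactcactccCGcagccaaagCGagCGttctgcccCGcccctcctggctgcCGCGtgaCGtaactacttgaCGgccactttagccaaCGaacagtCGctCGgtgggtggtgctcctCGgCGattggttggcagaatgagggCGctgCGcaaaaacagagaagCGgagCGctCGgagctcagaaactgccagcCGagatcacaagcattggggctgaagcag
Cdh8: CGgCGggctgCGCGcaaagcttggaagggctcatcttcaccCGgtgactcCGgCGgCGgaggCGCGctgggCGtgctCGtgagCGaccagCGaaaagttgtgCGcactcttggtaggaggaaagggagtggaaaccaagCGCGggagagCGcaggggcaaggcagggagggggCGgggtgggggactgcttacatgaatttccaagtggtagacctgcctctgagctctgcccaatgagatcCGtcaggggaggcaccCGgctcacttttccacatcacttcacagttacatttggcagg

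Quinpirole against Mock addresses which transcripts changed in astrocytes after stimulation of DRD2. Among the 41 tested members, *Pcdh1*, *Pcdh10* and *Cdh4* fell and 0 rose (limma on log2(FPKM + 1), adjusted p under 0.05). The 3 calls were 7.32% of the tested members, against 10.9% of all 12255 tested genes called in either direction, 5.18% called lower and 5.74% called higher. The share of members called is therefore close to the background. All 3 were among the 16 tested members outside the clusters (18.75%), and 0 of the 25 clustered ones were called. At an unadjusted p under 0.05 there were 6 members (14.6%), a smaller share than the 31.3% of all tested genes (3839 of 12255). Every Quinpirole value lay under every Mock value for 7 of 41 members (17.1%, against 16.9% of all tested genes), and every Quinpirole value lay above for 0, against 20% of all tested genes.

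*Pcdh1* is a delta-type protocadherin that is also expressed in airway epithelium. The gene (ENSMUSG00000051375, on chromosome 18) was measured at 17.2, 17.3 and 16.0 FPKM in the Mock libraries and at 13.9, 12.8 and 14.3 FPKM in the Quinpirole libraries. The groups did not overlap, and the lowest Mock value stood above the highest Quinpirole value. The mean was 18.9% lower, with a log2 fold change of -0.28 (SE 0.057, n = 3 per group, adjusted p in limma = 0.0298). Leaving out Mock replicate 3 gave -0.32 and kept the call, whereas leaving out any other library ended it, with values of -0.32 to -0.24.

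*Pcdh10* is a protocadherin whose cytoplasmic part binds the WAVE complex, a regulator of actin branching. The gene (ENSMUSG00000049100) lies on chromosome 3, 45378398 to 45435623 (GRCm38, plus strand), behind the promoter printed above. Its values were 43.2, 42.1 and 41.5 FPKM in Mock and 37.0, 33.3 and 38.2 FPKM in Quinpirole libraries. All Quinpirole values were below all Mock values, with Quinpirole replicate 2 lowest. The mean was 14.4% lower (log2 fold change -0.22, SE 0.055, n = 3 per group, adjusted p in limma = 0.0459). Leaving out any 1 of the 6 libraries ended the call, with values of -0.26 to -0.17. *Pcdh10* has the longest exonic length of the tested members, 15888 bases, and its log2 fold change was -0.02 (adjusted p = 0.716) once each library was corrected for a relation of its values to transcript length.

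*Cdh4* encodes R-cadherin, a classical cadherin close to N-cadherin, and the gene (ENSMUSG00000000305) lies on chromosome 2, 179442431 to 179899373 (GRCm38, plus strand). It was measured at 11.4, 11.5 and 11.5 FPKM in Mock and at 9.66, 9.74 and 10.4 FPKM in Quinpirole libraries. The Mock values lay close together and above all Quinpirole values. The mean was 13.4% lower (log2 fold change -0.19, SE 0.049, n = 3 per group, adjusted p in limma = 0.0497). Leaving out any 1 library ended this call as well, with values of -0.22 to -0.17. After the length correction the log2 fold changes of *Pcdh1* and *Cdh4* were -0.21 (adjusted p = 0.0510) and -0.14 (adjusted p = 0.120), so that 0 of 41 members passed the threshold, against 4.16% of 12223 genes with a length (2.07% called lower), while 6 members (14.6%, against 25.8% of all genes) had an unadjusted p under 0.05 in that limma fit. The *Cdh4* call was also lost under quantile normalization (log2 fold change -0.18, adjusted p = 0.0617).

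**Figure D1:**
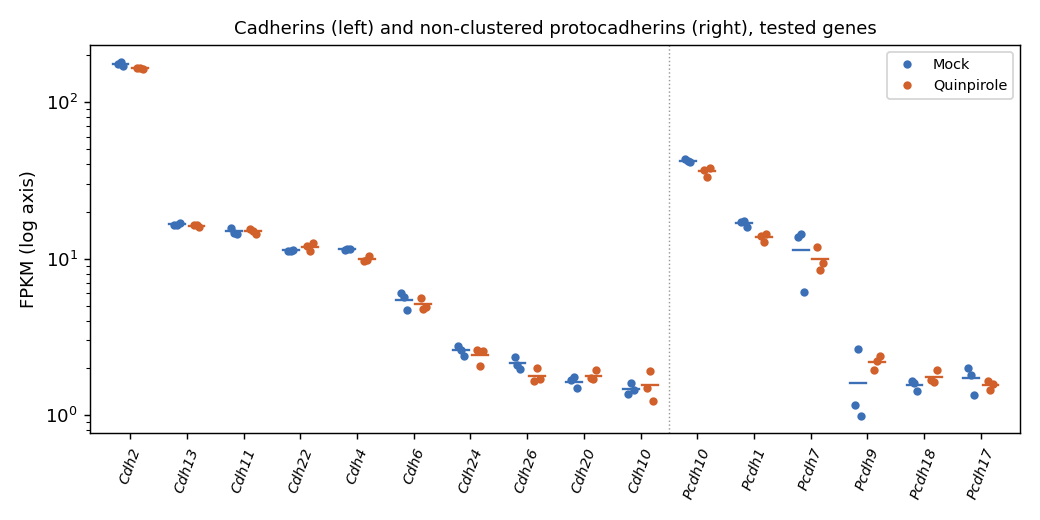
FPKM (log axis) of the 10 tested *Cdh* genes and the 6 tested non-clustered protocadherins in each library, with Mock in blue, Quinpirole in orange and a line at each group mean (n = 3). *Cdh2* stands above the rest at 164 to 180 FPKM. The groups are apart for *Cdh4*, *Pcdh10* and *Pcdh1*, which were called, and also for *Cdh2* and *Cdh13*, which were not. The values of *Pcdh7* and *Pcdh9* spread widely within the Mock group.

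Among the classical cadherins of type I, *Cdh2*, which encodes N-cadherin, was the most abundant by far. Its values were 176, 180 and 169 FPKM in Mock and 165, 165 and 164 FPKM in Quinpirole libraries, and it ranked 361 among all genes by mean level. The groups did not overlap, but the difference did not pass the threshold (log2 fold change -0.09, SE 0.035, 95% interval -0.17 to -0.0059, n = 3 per group, adjusted p in limma = 0.138). Under quantile normalization the log2 fold change was -0.19 and passed (adjusted p = 0.0464), whereas after the length correction it was -0.02 (adjusted p = 0.715). *Cdh1*, which encodes E-cadherin of epithelia, was at 0.0678, 0.188 and 0.120 FPKM in Mock and at 0.178, 0.0483 and 0.0863 FPKM in Quinpirole libraries. These values overlapped and were too low to be tested. *Cdh3* (P-cadherin) and *Cdh15* (M-cadherin of muscle) had means of 0.0359 and 0.0320 FPKM.

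Of the type II cadherins, *Cdh11*, known from mesenchymal and meningeal cells, and *Cdh22* had the highest levels. *Cdh11* was at 15.7, 14.7 and 14.4 FPKM in Mock and at 15.5, 15.1 and 14.4 FPKM in Quinpirole libraries. The groups overlapped throughout, and the log2 fold change was 0.00 (SE 0.052, 95% interval -0.12 to 0.12, n = 3 per group, adjusted p in limma = 0.974), turning to -0.00 under median ratio scaling and quantile normalization. *Cdh22* was at 11.25, 11.27 and 11.36 FPKM in Mock and at 12.03, 11.22 and 12.53 FPKM in Quinpirole libraries. Quinpirole replicate 2 lay below all Mock values while the other Quinpirole libraries lay above, and the log2 fold change was 0.07 (95% interval -0.05 to 0.19, adjusted p = 0.391). *Cdh6* had a mean of 5.29 FPKM, *Cdh24* of 2.51, *Cdh20* of 1.72 and *Cdh10* of 1.51, and none of these was called (adjusted p in limma from 0.501 to 0.865).

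*Cdh5*, which encodes VE-cadherin of endothelial junctions, was at 0.727, 0.908 and 0.519 FPKM in Mock and at 0.503, 0.519 and 0.597 FPKM in Quinpirole libraries. The groups overlapped, and the level was low beside that of *Cdh2*; of the 6 endothelial markers, *Kdr* was at 4.40 to 5.84 FPKM, *Slco1c1* at 3.55 to 4.41 and *Flt1* at 0.887 to 1.34, and *Pecam1*, *Tek* and *Emcn* were at no more than 0.145 FPKM. *Cdh19*, a cadherin of Schwann cell precursors, had a mean of 0.974 FPKM, just under the limit for testing. *Cdh18*, a neuronal cadherin, was at 0.123, 0.0644 and 0.0709 FPKM in Mock and at 0.179, 0.175 and 0.275 FPKM in Quinpirole libraries. Its groups did not overlap, at levels too low to be tested. *Cdh8* and *Cdh7*, both neuronal, had means of 0.0241 and 0.0044 FPKM.

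The cadherins of other structure were led by *Cdh13*, which encodes T-cadherin, a member anchored by a lipid instead of a transmembrane segment. It was at 16.5, 16.5 and 16.9 FPKM in Mock and at 16.4, 16.3 and 16.0 FPKM in Quinpirole libraries. The groups lay close without overlapping, and the log2 fold change was -0.03 (SE 0.040, 95% interval -0.12 to 0.06, n = 3 per group, adjusted p in limma = 0.631), or 0.084 after the length correction. *Cdh26* had a mean of 1.97 FPKM and a log2 fold change of -0.18 (adjusted p = 0.195). *Cdh17*, an intestinal cadherin, and *Cdh23*, a component of the tip links of hair cells, had means of 0.270 and 0.0771 FPKM.

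Besides *Pcdh1* and *Pcdh10*, 4 non-clustered protocadherins were tested and none was called. *Pcdh7* was at 13.7, 14.3 and 6.08 FPKM in Mock and at 11.8, 8.52 and 9.37 FPKM in Quinpirole libraries. Mock replicate 3 was lower than every other library, and the log2 fold change of -0.11 (95% interval -0.78 to 0.55, adjusted p in limma = 0.820) turned to 0.06 without Mock replicate 1 and to 0.08 without Mock replicate 2, and was -0.47 (adjusted p = 0.0591) without Mock replicate 3. An antisense gene covers 21.1% of its exonic bases, and without strand the reads of both cannot be told apart. *Pcdh9* was at 1.16, 2.66 and 0.995 FPKM in Mock and at 1.95, 2.23 and 2.40 FPKM in Quinpirole libraries. The Mock values lay on both sides of the Quinpirole values (log2 fold change 0.35, 95% interval -0.16 to 0.85, adjusted p = 0.312). With 1 library left out the value ran from 0.18 without Mock replicate 3 to 0.62 without Mock replicate 2 (adjusted p = 0.591 and 0.0906).

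*Pcdh18*, whose product binds the adaptor Dab1, was at 1.66, 1.61 and 1.43 FPKM in Mock and at 1.68, 1.63 and 1.93 FPKM in Quinpirole libraries. The groups overlapped (log2 fold change 0.10, 95% interval -0.09 to 0.28, adjusted p in limma = 0.433), as did those of *Pcdh17* (mean 1.64 FPKM, log2 fold change -0.09, adjusted p = 0.613). *Pcdh19*, mutated in a human epilepsy, and *Pcdh8* had means of 0.550 and 0.425 FPKM, and all 3 Quinpirole values of *Pcdh8* lay under its Mock values. *Pcdh20*, *Pcdh11x* and *Pcdh15* had means of 0.171, 0.0386 and 0.0069 FPKM. *Pcdh12*, known from endothelium, was listed at 0 in all 3 Mock libraries and at 0.0098, 0.0956 and 0.0837 FPKM in Quinpirole libraries.

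**Figure D2:**
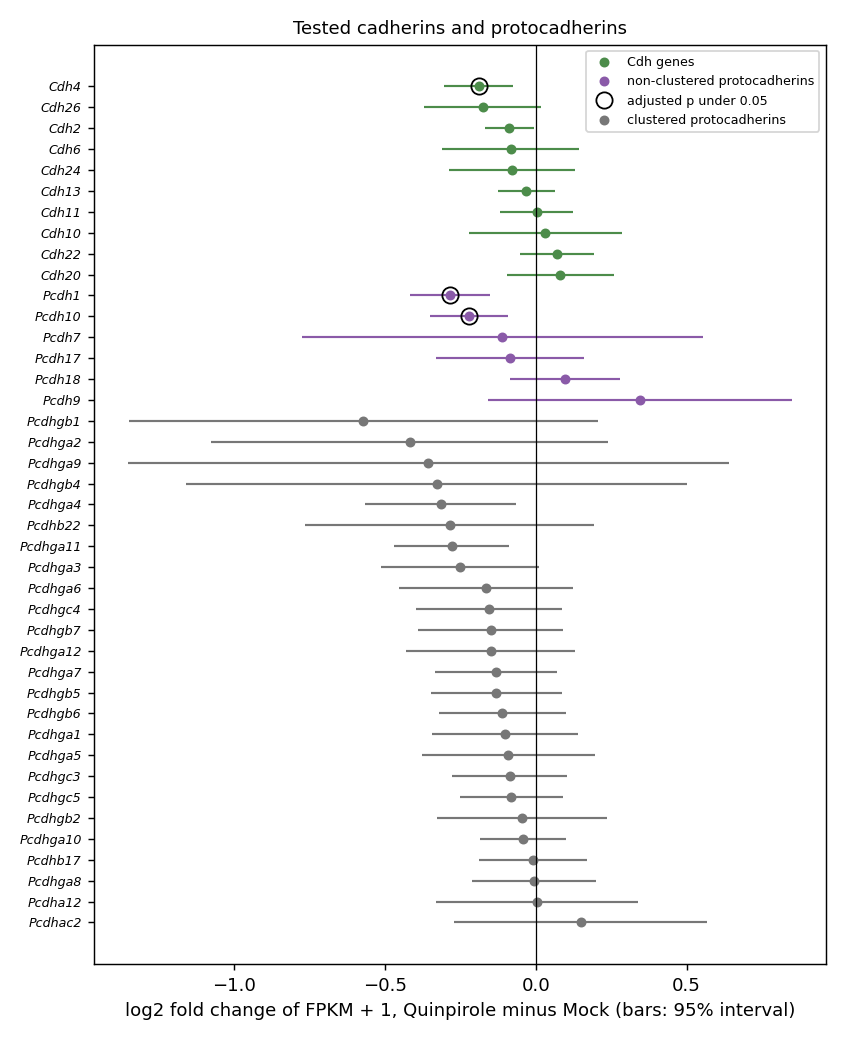
Log2 fold change of FPKM + 1 from Mock to Quinpirole with its 95% interval for the 41 tested members, by class, with rings around those with an adjusted p under 0.05. The rings are on *Cdh4*, *Pcdh1* and *Pcdh10*; 33 of 41 points lie left of 0, all 21 gamma protocadherins among them, and most intervals cross 0.

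The clustered protocadherins lie together on chromosome 18, and their FPKM values are uncertain. Of the stretches of 50 bases in the longest transcript, 20.4% to 65.9% (median 45.0%) also occurred in transcripts of other genes for the gamma cluster and 48.2% to 97.5% (median 60.7%) for the alpha cluster. For the beta cluster the share was 0% to 12%, and outside the clusters 0% to 3.2%. How shared fragments were divided among the genes is not given in the sources used here. Members of the gamma cluster are therefore not independent measurements of one another. Within-group variation was larger as well, with a median coefficient of variation of 15.1% over the 25 tested clustered genes, against 12.01% for the 6 non-clustered protocadherins and 5.91% for the 10 *Cdh* genes.

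In the gamma cluster, all 21 genes were tested and 0 were called in limma, with 2 at an unadjusted p under 0.05, against 31.3% of all tested genes. The mean log2 value was lower in Quinpirole for 21 of 21 genes, with a median log2 fold change of -0.15. The number was 21 under median ratio scaling, 20 under quantile normalization and 19 or 20 with 1 library left out. Over all tested genes 46.2% had a lower mean, and the median was 0.02. The interval of the log2 fold change excluded 0 for *Pcdhga11* and *Pcdhga4* alone. *Pcdhga11* was at 4.29, 4.34 and 3.88 FPKM in Mock and at 3.56, 3.37 and 2.87 FPKM in Quinpirole libraries. All Quinpirole values were below the Mock values (log2 fold change -0.28, 95% interval -0.47 to -0.09, n = 3 per group, adjusted p in limma = 0.0662). *Pcdhga4* was likewise separated, from 2.39 to 3.38 FPKM in Mock and from 1.91 to 2.29 FPKM in Quinpirole libraries (log2 fold change -0.32, adjusted p = 0.0956).

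*Pcdhgc3*, one of the C-type genes at the end of the cluster, was its most abundant member. It was at 70.4, 70.9 and 63.9 FPKM in Mock and at 62.8, 58.2 and 72.6 FPKM in Quinpirole libraries. Quinpirole replicate 3 was the highest library of all, so the groups overlapped (log2 fold change -0.09, 95% interval -0.28 to 0.10, n = 3 per group, adjusted p in limma = 0.504). Its value was -0.17 without Quinpirole replicate 3 and -0.02 without Quinpirole replicate 2. *Pcdhgc5* had 17.1, 18.4 and 16.2 FPKM in Mock and 15.5, 15.3 and 17.9 FPKM in Quinpirole libraries. There too Quinpirole replicate 3 was above the rest of its group and the groups overlapped (log2 fold change -0.08, 95% interval -0.25 to 0.09, adjusted p = 0.481), with values of -0.15 without Quinpirole replicate 3 and -0.04 without Mock replicate 2. *Pcdhgc4*, the third C-type gene, had a mean of 2.70 FPKM and a log2 fold change of -0.16 (adjusted p = 0.341).

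The 18 genes of types A and B had means of 1.74 to 7.03 FPKM. *Pcdhga7*, the highest, was at 8.16, 6.97 and 7.03 FPKM in Mock and at 7.02, 5.91 and 7.06 FPKM in Quinpirole libraries. *Pcdhga2* was at 4.97, 7.78 and 7.35 FPKM in Mock and at 7.97, 3.26 and 3.80 FPKM in Quinpirole libraries. *Pcdhgb4* was at 4.75, 2.88 and 7.20 FPKM in Mock and at 2.34, 6.45 and 2.72 FPKM in Quinpirole libraries. In each of these 3 genes the groups overlapped, and for *Pcdhga2* and *Pcdhgb4* single libraries of a group differed from each other by more than the group means did (log2 fold changes -0.13, -0.42 and -0.33, adjusted p in limma = 0.339, 0.347 and 0.562). With 1 library left out, *Pcdhga7* ran from -0.17 (without Quinpirole replicate 3) to -0.06 (without Quinpirole replicate 2), *Pcdhga2* from -0.75 (without Quinpirole replicate 1) to -0.21 (without Quinpirole replicate 2) and *Pcdhgb4* from -0.69 (without Quinpirole replicate 2) to -0.06 (without Mock replicate 3), and none of the 3 was called. *Pcdhga9*, chosen after its values were seen, was at 1.25, 1.59 and 6.64 FPKM in Mock, with replicate 3 far above the others, and at 1.40, 1.63 and 2.37 FPKM in Quinpirole libraries. Over the 21 gamma genes, log2 fold changes ran from -0.57 for *Pcdhgb1* to -0.01 for *Pcdhga8*. Among the tested genes, the highest library exceeded the lowest by more than 2 times for 7 of 25 clustered genes, 2 of 6 non-clustered protocadherins and 0 of 10 *Cdh* genes.

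**Figure D3:**
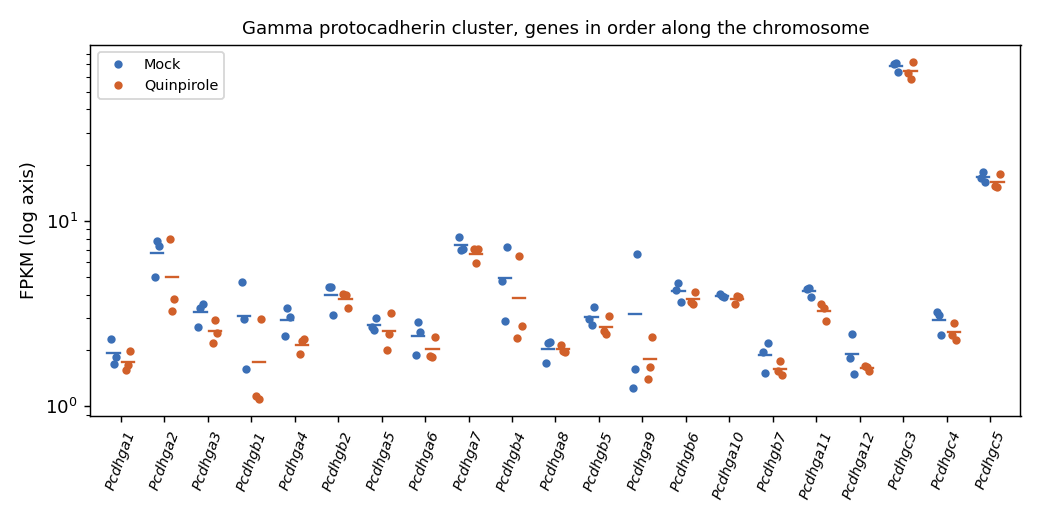
FPKM (log axis) of the 21 gamma protocadherins in each library, in their order along the chromosome, with Mock in blue, Quinpirole in orange and a line at each group mean (n = 3). *Pcdhgc3* and *Pcdhgc5* at the end of the cluster stand above the genes of types A and B, and *Pcdhga2*, *Pcdhgb1*, *Pcdhgb4* and *Pcdhga9* spread most within a group.

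If each shared fragment was given once and within its cluster, the sum over a cluster depends on the division only through the gene lengths. Whether this was so is not given in the sources used here, so the sums are uncertain too. The gamma cluster summed to 152, 155 and 150 FPKM in Mock and to 133, 129 and 146 FPKM in Quinpirole libraries (152 ± 2.30 against 136 ± 9.33, SD, n = 3). All Quinpirole sums were below all Mock sums, and the mean was 10.7% lower. The genes of types A and B summed to 61.1, 62.2 and 67.5 FPKM in Mock and to 52.0, 52.1 and 53.5 FPKM in Quinpirole libraries, a mean 17.4% lower. A large part of that difference lay in *Pcdhga2*, *Pcdhga9*, *Pcdhgb1* and *Pcdhgb4*, the 4 gamma genes that spread most within a group (chosen after their values were seen), whose sum was 17.9 ± 4.24 FPKM in Mock, with replicate 3 highest at 22.8, and 12.4 ± 0.504 FPKM in Quinpirole (SD, n = 3, 30.8% lower). The other 14 genes summed to 45.5, 47.0 and 44.8 FPKM in Mock and to 39.2, 39.7 and 41.7 FPKM in Quinpirole libraries, still apart, a mean 12.2% lower. *Pcdhgc3* held 42.6% to 49.6% of the gamma sum in the 6 libraries. These sums are given without a test because the members were chosen with results known.

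The beta cluster summed to 10.2, 9.80 and 9.98 FPKM in Mock and to 8.77, 9.08 and 7.22 FPKM in Quinpirole libraries. The sums did not overlap, and the mean was 16.4% lower. Of the 22 genes only *Pcdhb22* and *Pcdhb17* reached the limit for testing, with means of 1.46 and 1.32 FPKM. *Pcdhb22* was at 1.70, 1.69 and 1.60 FPKM in Mock and at 1.68, 1.57 and 0.514 FPKM in Quinpirole libraries, with Quinpirole replicate 3 far below the other 5 libraries (log2 fold change -0.28, 95% interval -0.76 to 0.19, adjusted p in limma = 0.381). It overlaps its neighbour *Pcdhb21* on the same strand. *Pcdhb21* was at 0.235, 0 and 0 FPKM in Mock and at 0, 0.344 and 0.183 FPKM in Quinpirole libraries. Whether reads were split between both genes was not tested. The other 20 beta genes had means of 0.0024 to 0.902 FPKM. *Pcdhb20* and *Pcdhb16*, chosen after their values were seen, were too low to be tested and lay apart, from 0.867 to 0.923 against 0.434 to 0.660 FPKM and from 0.345 to 0.394 against 0.176 to 0.326 FPKM.

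The alpha cluster summed to 3.43, 2.78 and 3.36 FPKM in Mock and to 2.98, 3.17 and 3.06 FPKM in Quinpirole libraries. The sums overlapped, with a mean 3.74% lower. *Pcdhac2* and *Pcdha12* were the only alpha genes tested, with means of 1.15 and 1.02 FPKM and log2 fold changes of 0.15 and 0.00 (adjusted p in limma = 0.605 and 0.991). The other 12 alpha genes had means of 0.0041 to 0.421 FPKM, and 9 were under 0.1 FPKM. *Pcdha3*, *Pcdha8* and the beta gene *Pcdhb1* were at or under 3 estimated fragments in all 6 libraries, so their expression was not detectable at this depth.

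**Figure D4:**
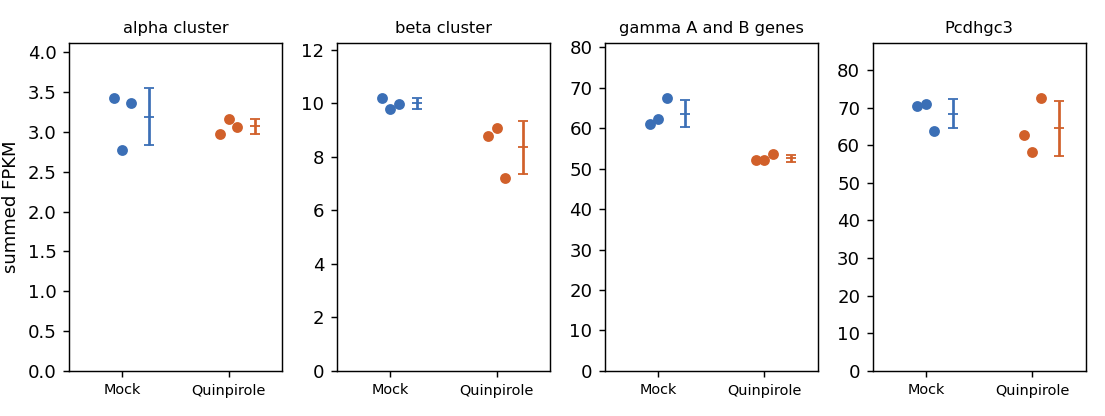
Summed FPKM per library (points) with the group mean and SD (bars, n = 3) for the alpha cluster, the beta cluster, the gamma genes of types A and B, and *Pcdhgc3*, on axes that start at 0. The groups are apart for the beta cluster and for the A and B genes, and they overlap for the alpha cluster and *Pcdhgc3*.

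Across the whole family, 33 of 41 tested members (80.5%) had a lower mean log2 value in Quinpirole (35 under median ratio scaling and 32 under quantile normalization), and the median log2 fold change was -0.10, against 0.02 over all tested genes. Most of the members with a lower mean, 21 of 33, were gamma protocadherins; the median was -0.06 over the 10 *Cdh* genes and -0.10 over the 6 non-clustered protocadherins. Fold changes in these libraries moved with transcript length. The median of all genes was 0.12 in the shortest quintile by exonic length (102 to 2514 bases) and -0.11 in the longest quintile (7767 bases and above), and 38 of the 41 members, those of 3813 bases and above, fell in the 3 longer quintiles. In the middle quintile, 15 members had a median of -0.11, against 0.02 over all genes of that quintile. In the next quintile, 14 members had a median of -0.14, against -0.03. In the longest quintile, 9 members had a median of -0.09, against -0.11.

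After the length correction, 31 of 41 members (75.6%) had a lower log2 fold change, with a median of -0.09, against 48.5% of all genes and a median of 0.01. The 21 gamma genes all remained lower (median -0.13). The 10 *Cdh* genes then had a median of 0.02 with 5 lower, and the 6 non-clustered protocadherins a median of 0.03 with 3 lower. The part of length in the results was not tested beyond this correction, which would also remove a true change related to length.

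**Figure D5:**
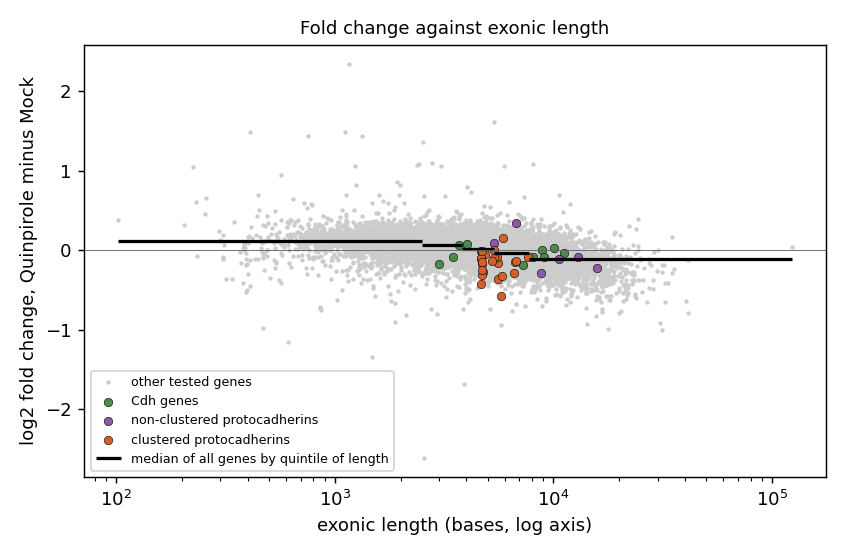
Log2 fold change from Mock to Quinpirole against exonic length (log axis) for all tested genes in grey, the members in colour by class and the median of all genes in each quintile of length as black lines. The medians run from 0.12 in the shortest to -0.11 in the longest quintile, and 24 of the 25 clustered protocadherins lie below the line of their own quintile.

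Partners of the family were taken from 5 lists of 73 genes, of which 71 were in the tables and 59 were tested. Of these, 5 fell and 1 rose, 10.2% of those tested against 10.9% of all genes. Of the catenins and other adherens junction proteins, 19 were tested and 2 fell (10.5%, against 10.9% of all tested genes called in either direction). Over all genes of 5355 to 7766 bases, the quintile that holds the list's median exonic length (7464 bases), 59.45% had a lower mean. Over all tested genes the share was 46.2%. Of the 19 genes, 17 had a lower mean. The most abundant, *Ctnnb1* and *Ctnna1*, which encode beta- and alpha-catenin, had means of 301 and 192 FPKM and log2 fold changes of -0.02 and -0.03 (adjusted p in limma = 0.737 and 0.613). *Ctnnd2*, a catenin of the p120 type, was at 24.2, 24.7 and 23.9 FPKM in Mock and at 21.2, 20.2 and 22.2 FPKM in Quinpirole libraries and fell by 0.19 on the log2 scale (adjusted p = 0.0466). *Tjp1*, the junction scaffold ZO-1, was at 58.3, 59.2 and 53.3 FPKM in Mock and at 50.8, 45.7 and 49.6 FPKM in Quinpirole libraries and fell by 0.22 (adjusted p = 0.0497). Neither gene's groups overlapped. After the length correction 13 of the 19 were lower (median log2 fold change -0.03) and 0 were called, with *Ctnnd2* at -0.09 (adjusted p = 0.207) and *Tjp1* at -0.16 (adjusted p = 0.0859).

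Of the 16 signalling partners of protocadherins, 9 had a lower mean, against 46.2% of all tested genes. In this list 2 fell (12.5%, against 10.9% of all tested genes called in either direction), both of them subunits of the WAVE complex. *Wasf3* was at 10.7, 10.9 and 10.3 FPKM in Mock and at 8.66, 7.13 and 8.28 FPKM in Quinpirole libraries, with no overlap, and fell by 0.37 on the log2 scale (SE 0.073, adjusted p in limma = 0.0288). It was the 1 partner gene that still passed after the length correction (adjusted p = 0.0415). *Wasf2* was at 25.9, 25.9 and 26.5 FPKM in Mock and at 24.0, 21.4 and 22.7 FPKM in Quinpirole libraries, also apart, and fell by 0.19 (adjusted p = 0.0483). The small subunit *Brk1* and the actin-binding *Marcks* were the most abundant, at means of 127 and 76.1 FPKM, with log2 fold changes of 0.15 and 0.14 that were not called (adjusted p = 0.0981 and 0.153).

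Of the 10 proteases that cleave cadherins, 6 had a lower mean, against 46.2% of all tested genes. In this list 1 rose (10%, against 10.9% of all tested genes called in either direction). *Psenen*, a subunit of gamma-secretase, was at 84.9, 90.3 and 93.8 FPKM in Mock and at 98.8, 103 and 103 FPKM in Quinpirole libraries. The Quinpirole values were all higher (log2 fold change 0.18, SE 0.046, n = 3 per group, adjusted p in limma = 0.0480), but the value was 0.06 (adjusted p = 0.351) after the length correction. *Ncstn*, another subunit, had a mean of 72.9 FPKM and a log2 fold change of -0.01 (adjusted p = 0.862). Leaving out single libraries left 0 of the 59 partner genes called, except without Mock replicate 3, when 7 were called.

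Of the 12 tested regulators of the protocadherin clusters, which shape chromatin loops or silence promoters there, 11 had a lower mean, against 46.2% of all tested genes. The list's median exonic length, 6623 bases, lies in the quintile where 59.45% of all genes were lower. In limma 0 were called, against 10.9% of all tested genes, and 3 had an unadjusted p under 0.05, against 31.3%. After the length correction 8 of the 12 were lower, with a median log2 fold change of -0.03. The corepressor *Trim28* and the cohesin subunit *Rad21* had the highest means, 76.7 and 50.01 FPKM, with log2 fold changes of -0.01 and 0.09 (adjusted p = 0.833 and 0.138). Of the 12 other cadherin superfamily genes in the tables, 2 were tested. *Clstn2*, a calsyntenin of synaptic membranes, was at 2.77, 2.48 and 2.04 FPKM in Mock and at 1.68, 1.56 and 1.55 FPKM in Quinpirole libraries and fell by 0.40 on the log2 scale (adjusted p in limma = 0.0412). *Clstn1* was far more abundant, with a mean of 117 FPKM and a log2 fold change of -0.22 (adjusted p = 0.0662).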

How the data were processed

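Poly-A mRNA of 6 libraries, 3 Mock and 3 Quinpirole, was sequenced after library preparation with a kit that does not keep strand. Per the labels, the authors mapped reads to GRCm38 with TopHat2, and they deposited 1 FPKM value per gene and library; the program behind the FPKM and its annotation are not given in the sources used here. Counts were not used here, so depth was read from the smallest FPKM values of 1254 genes with 1 transcript of at least 2000 bases, which rise by 1 fragment at a time. Only 58.3% to 67.3% of them came within 0.1 of whole fragments, so no counts were recovered. Multiples of the true depth fit as well. The search was therefore held to a set range of depths, and the estimates rest on that range. No pair of libraries shared identical values for more than 0.0245% of tested genes.

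The log2(FPKM + 1) values of the 12255 genes averaging 1 FPKM or more were fitted with limma 3.58.1 in R 4.3.3 (lmFit, eBayes with trend, two-sided, Benjamini-Hochberg over all tested genes, threshold 0.05), so fold changes understate those of low genes. On simulated data for this comparison, 186 of 200 genes with a simulated log2 change of 1 were recovered and 10 unchanged genes were called, of 12204 genes. The libraries simulated for these counts held no relation to transcript length. That change was larger than those of *Pcdh1*, *Pcdh10* and *Cdh4* (-0.28, -0.22 and -0.19), so recovery of changes of their size was not tested. Symbols were matched for 17090 of 17193 identifiers, and positions, lengths and shared stretches were taken from GENCODE M21; 2 identifiers carry the symbol *Pcdha11* there and were kept apart. For the length correction, a loess curve (span 0.3) of each library's deviation from the gene mean on the log2 of exonic length was subtracted. Alternatives were 0.1 as pseudocount, a minimum mean of 5 FPKM or no filter, median ratio scaling and quantile normalization, eBayes without trend, the replicate number as a block, the length correction with and without the block, and the omission of each library. The members, lists and alternatives were chosen with earlier results of these data known. Genes named with values in every library are those past the threshold, the 5 of highest mean in each class, and *Cdh1*, *Cdh2*, *Cdh5*, *Cdh11*, *Pcdh1* and *Pcdh10*; of each partner list, those past the threshold and the 2 of highest mean. Figures were drawn with Python 3.11.15 and matplotlib 3.10.9.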

Additional observations from a re-analysis of the deposited data

How the results depend on the processing

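The 3 members called lower became 1 without the filter and 1 with eBayes without trend, in both cases *Pcdh1*, and 0 with the length correction or the replicate block, when 6 (14.6%) had an unadjusted p under 0.05, against 25.8% and 27% of all genes. Under quantile normalization 3 were called, with *Cdh2* in place of *Cdh4*. For all genes (1339 called), the count was 633 without the filter, 783 under quantile normalization (283 higher and 500 lower, against 704 and 635), 714 with eBayes without trend (293 higher and 421 lower) and 509 with the length correction. For the partner genes (6 called), it was 0 without the filter, 2 with eBayes without trend and 1 with the length correction. With the replicate block, 2 genes in all, 0 members and 0 partner genes were called, and 0 of each with the length correction and the block together. The main fit used no pairing, because the numbers in the labels were taken to name different mice. Deviations from the group means had correlations of 0.026, -0.066 and -0.103 between libraries of the same number. The mean of 0.024 for different numbers is no separate reference, because the deviations sum to 0 within a group. Leaving out 1 library gave 3 to 1182 genes, 0 to 1 members (1 without Mock replicate 3) and 0 to 7 partner genes. Why these counts changed was not tested. Without the filter, the median log2 fold change was -0.055 over all 89 members, and over the 41 members of the main fit it stayed at -0.102. With 1 library left out, the median of the tested members was -0.134 to -0.0683. The value of *Cdh13* turned to 0.0843 with the length correction, with or without the block, that of *Cdh11* to -0.0045 under median ratio scaling and -0.0043 under quantile normalization and ranged from -0.0205 to 0.0377 with 1 library left out, and that of *Pcdh7* ranged from -0.472 to 0.0833. Of 222 values over 15 named genes, 180 kept their direction and side of the threshold, 31 lost the call, 1 gained it and 10 changed sign. Depth limits what can be said of the 20 members with a mean under 0.1 FPKM.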
